A study of Drosophila melanogaster with 24 samples.

Results

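The Dpr and DIP genes of *Drosophila melanogaster* were examined for the binding of Cap-G, a subunit of the condensin I complex, in neural stem cells and neurons of the third instar larval brain. Members were all protein-coding genes of a Release 6 gene table whose symbol is *dpr* followed by a number or begins with *DIP-*, which gave 32 genes (21 Dpr and 11 DIP) of 13922 protein-coding genes. Binding was profiled by Targeted DamID (TaDa), in which a Dam methylase fused to a protein of interest methylates GATC sites close to where that protein sits, and a GAL4 driver restricts the fusion to 1 cell type. The drivers were *wor-GAL4* for NSCs, *elav-GAL4* for neurons from newly born to mature (elav neurons) and *nSyb-GAL4*, a fragment of the *nSyb* regulatory region, for mature neurons (nSyb neurons), so the elav population includes the nSyb one. For each driver there were 2 Cap-G-Dam samples, carrying UAS-LT3-Cap-G-Dam with Dam at the C-terminus, and 2 Dam-only samples carrying Dam alone, from 30 brains each. All of them carried a temperature-sensitive GAL80, were raised at 18 degrees and were shifted to 29 degrees for 24 h before DNA was taken. The fusion was added to cells that still had their own Cap-G.

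Dpr (defective proboscis extension response) and DIP (Dpr-interacting) proteins are small cell-surface proteins of the immunoglobulin superfamily. They bind across cells in selective Dpr-DIP pairs, and individual neurons carry different combinations. In the fly nervous system they are known for matching synaptic partners, at the neuromuscular junction and in the optic lobe among other places, and for the survival of some neurons. Condensin I is best known for compacting chromosomes at mitosis.

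The values were log2 ratios of Cap-G-Dam over Dam-only for 373710 GATC fragments, averaged by the authors into 1 track per driver. With 1 averaged track per cell type there was no replicate spread, so no difference below has an SD, a standard error or a p-value, and each is a description of these tracks. The depth of the samples is unknown. A gene value is the mean log2 ratio over the span of the gene, weighted by the length of each fragment, and a percentile is its place among all protein-coding genes of the same track. Less Cap-G-Dam methylation and more Dam-only methylation both give values below 0, and the averaged ratio cannot tell these apart. A binding ratio does not measure expression, so the labelled cell types could not be checked against marker genes.

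The Dpr and DIP genes were near the middle of the genome in NSCs and progressively lower in elav and nSyb neurons. Their median gene value was -0.025 in NSCs, -0.096 in elav and -0.20 in nSyb neurons, whereas the medians of all protein-coding genes were -0.00094, 0.051 and 0. The median percentile of the members was 43.0 in NSCs, 28.9 in elav and 21.7 in nSyb neurons. In NSCs 23 of 32 members were below 0, where the share of all protein-coding genes was 50.4%. In elav neurons 26 were below 0, against 41.3%, and in nSyb neurons 31 were, against 49.5%. The exception in nSyb neurons was *dpr21*, at 0.0051. No member lay in the highest 10% of any track.

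The low values were common to most members rather than extreme in a few. None of the 32 genes was in the lowest 10% of NSCs or of elav neurons, where by construction 10% of all genes lie. In nSyb neurons 4 were, against the same 10%: *dpr7*, *dpr12*, *dpr4* and *dpr5*. Of protein-coding genes of at least 20 kb, as 18 members are, only 2.77% in NSCs, 5.63% in elav and 2.57% in nSyb neurons lay there. Absence from the lowest 10% is thus usual for genes of that length. In contrast, 22 of 32 members were below the median gene in NSCs, 29 in elav and 31 in nSyb neurons. Values of 19 members (59.4%) were below 0 in all 3 tracks, compared with 26.7% of all genes, and no member was above 0 in all 3. The count below 0 in NSCs was 15 with the unweighted median of the fragments in place of the weighted mean.

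**Figure D1:**
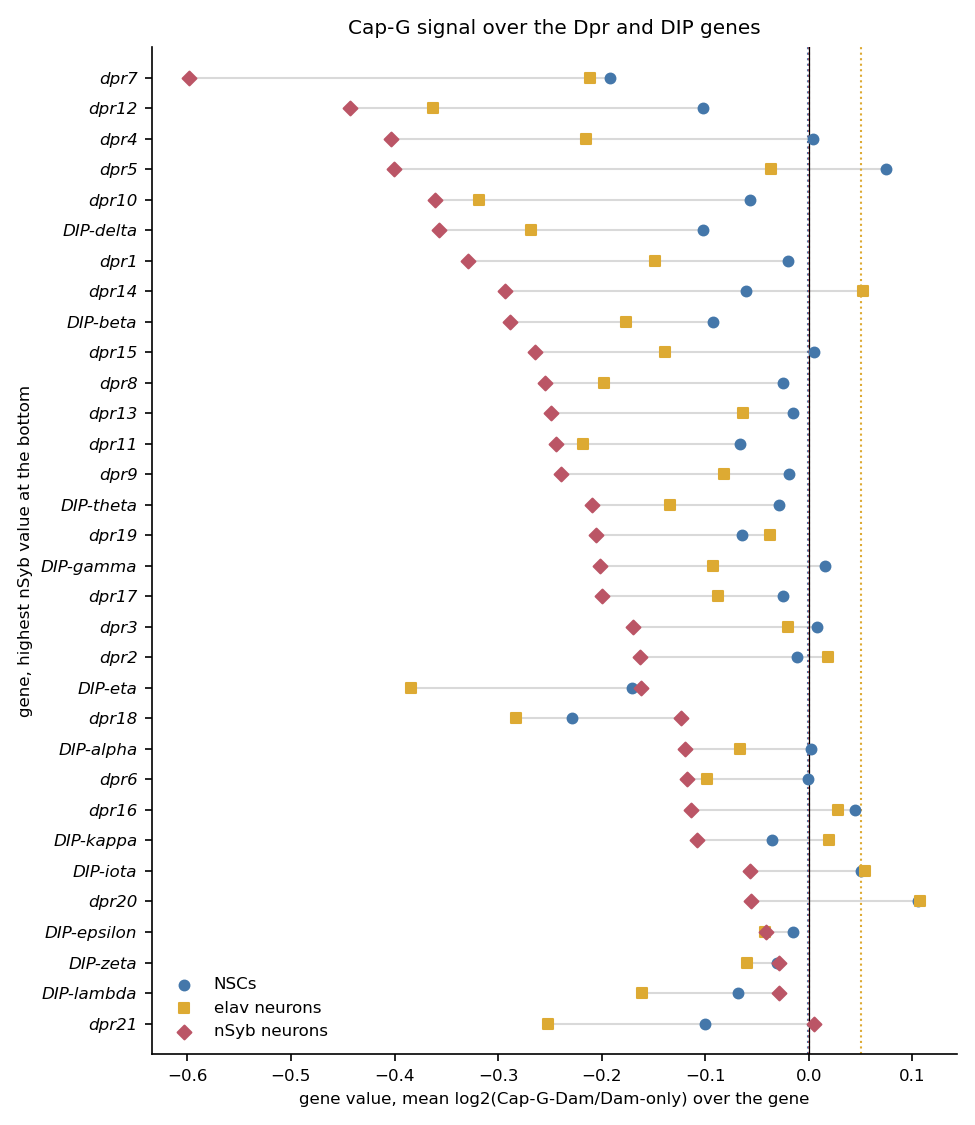
Gene values of the 32 Dpr and DIP genes (x axis, mean log2 ratio of Cap-G-Dam over Dam-only over the gene) in NSCs (circles), elav neurons (squares) and nSyb neurons (diamonds), 1 averaged value per gene and cell type, with no error bars because no replicate values were used. Dotted lines mark the median of all protein-coding genes in each track, and the nSyb values of 31 of the 32 genes lie below 0.

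Dpr and DIP genes are long, with a median length of 32.5 kb against 2.16 kb for all protein-coding genes, so their values were also set beside those of long genes. Of the 18 members of at least 20 kb, 15 were below 0 in NSCs, 16 in elav and 17 in nSyb neurons, compared with 61.0%, 50.8% and 65.6% of the 1012 protein-coding genes of that length. The median of these long members was -0.023 in NSCs, -0.12 in elav and -0.21 in nSyb neurons, against -0.017, -0.0026 and -0.073 for long genes. When these 18 were ranked among the 1012 long genes, none was in the lowest 10% in NSCs. The lowest 10% held *dpr12* and *dpr10* in elav neurons, and *dpr12*, *dpr10*, *dpr1* and *DIP-beta* (4 of 18) in nSyb neurons. Among the 32 members length and gene value were weakly related, with a Spearman rho of -0.078 in NSCs, -0.30 in elav and 0.16 in nSyb neurons.

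Pairs form between Dpr and DIP proteins, so the 2 groups were also described separately. The median of the 21 Dpr genes was -0.02 in NSCs, -0.098 in elav and -0.24 in nSyb neurons. The median of the 11 DIP genes was -0.03, -0.093 and -0.12. Thus the 2 groups had like medians in NSCs and elav neurons, and the Dpr median was the lower one in nSyb neurons. All 11 DIP genes and 20 of 21 Dpr genes were below 0 in nSyb neurons. All 4 members in the lowest 10% of nSyb neurons were Dpr genes. Of these 4, 3 were shorter than 20 kb. Among all protein-coding genes 10.6% of those under 20 kb lay there, against 2.57% of longer ones, and the 2 groups were not matched for length.

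As examples, 3 known pairs were followed. DIP-alpha binds Dpr6 and Dpr10, and these proteins are known from muscle innervation and from synapse formation in the optic lobe. *DIP-alpha* (FBgn0052791, X:3507245-3571649) had gene values of 0.0019 in NSCs, -0.066 in elav and -0.12 in nSyb neurons. *dpr6* (FBgn0040823, 3L:9974651-10139360) had -0.00058, -0.10 and -0.12, and so followed *DIP-alpha* closely. *dpr10* (FBgn0052057, 3L:10147454-10186108), which starts 8.09 kb after *dpr6* ends with no protein-coding gene between them, was lower, at -0.057, -0.32 and -0.36. Its percentile went from 35.9 in NSCs to 12.8 and 10.6, whereas that of *dpr6* went from 50.2 to 28.6 and 32.1. The 2 neighbouring genes, whose proteins share DIP-alpha as a partner, therefore stood at different levels in both neuronal tracks.

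DIP-gamma binds Dpr11, a pair known from the wiring of a class of photoreceptors to their targets. *DIP-gamma* (FBgn0039617, 3R:28925004-28970372) had 0.016 in NSCs, -0.093 in elav and -0.20 in nSyb neurons. *dpr11* (FBgn0053202, 3R:6529169-6593330) had -0.066, -0.22 and -0.24. Both were lower in neurons than in NSCs, and in *dpr11* nearly all of the difference was already present in elav neurons. DIP-delta binds Dpr12, a pair required in the mushroom body, the olfactory memory centre. *DIP-delta* (FBgn0085420, 3L:5424109-5442399) had -0.10, -0.27 and -0.36, and *dpr12* (FBgn0085414, 2R:5804712-5860831) had -0.10, -0.36 and -0.44. This was the pair with both partners among the 6 lowest members of nSyb neurons.

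Besides *dpr12*, the lowest members of nSyb neurons were *dpr7* and 2 neighbours on 3R. The lowest of all was *dpr7* (FBgn0053481, 4:247124-253329), at -0.19 in NSCs, -0.21 in elav and -0.60 in nSyb neurons, its percentile being 17.3, 19.1 and 3.67. Chromosome 4, on which it was the only member, was low as a whole: the median of its genes was -0.22 in NSCs, -0.15 in elav and -0.29 in nSyb neurons. Therefore *dpr7* was close to its own chromosome in NSCs and below it in nSyb neurons. *dpr4* (FBgn0053512, 3R:11533483-11542949) had 0.0038, -0.21 and -0.40. *dpr5* (FBgn0037908, 3R:11499984-11505951), 27.5 kb from *dpr4*, had 0.075, -0.036 and -0.40. These 2 had the same nSyb level but different elav levels, at percentiles of 18.8 and 36.2.

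The lowest member of NSCs was *dpr18* (FBgn0030723, X:16063738-16070304), at -0.23 in NSCs, -0.28 in elav and -0.12 in nSyb neurons. It spans 12 fragments, of which 6 were below 0 in NSCs, and with the unweighted median of its fragments its value was 0.026 in NSCs and 0.029 in elav neurons. *dpr7* and *DIP-eta* (FBgn0031725, 2L:5601723-5617946) were the other 2 lowest in NSCs. *DIP-eta* was the lowest member of elav neurons, with -0.17 in NSCs, -0.38 in elav and -0.16 in nSyb neurons, followed there by *dpr12* and *dpr10*. It was therefore 1 of the members whose nSyb value was above the elav value.

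At the other end, *dpr20* (FBgn0035170, 3L:852720-857248) was the highest member of both NSCs and elav neurons, at 0.11 in each, and was -0.056 in nSyb neurons. *dpr5* and *DIP-iota* (FBgn0031837, 2L:6617134-6621700) followed in NSCs, the latter with 0.051, 0.054 in elav and -0.056 in nSyb neurons. In elav neurons *DIP-iota* and *dpr14* (FBgn0029974, X:7903704-7908286) came next, *dpr14* having -0.061 in NSCs, 0.052 in elav and -0.29 in nSyb neurons. The highest of these, *dpr20*, was at percentile 75.6 in NSCs and 58.0 in elav neurons. The highest members of nSyb neurons were *dpr21* (FBgn0260995, 2R:3066499-3191011), *DIP-lambda* (FBgn0267428, 2R:326768-705848) and *DIP-zeta* (FBgn0051708, 2L:9051631-9071164). *dpr21* had -0.10 in NSCs, -0.25 in elav and 0.0051 in nSyb neurons, *DIP-lambda* had -0.068, -0.16 and -0.028, and *DIP-zeta* had -0.03, -0.06 and -0.029. For these 3 genes the elav value was the lowest of the 3 tracks.

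The remaining members mostly repeated the order NSCs, elav neurons, nSyb neurons. *dpr1*, the founding member named for a defect in salt aversion, had -0.02, -0.15 and -0.33 in that order. *DIP-beta* had -0.093, -0.18 and -0.29. *dpr8* had -0.025, -0.20 and -0.25. These 3 genes of 35.6 to 140.1 kb thus differed little in nSyb neurons. *dpr15* had 0.0052, -0.14 and -0.26, and its neighbour *dpr17*, 27.4 kb away, had -0.025, -0.087 and -0.20. *dpr13* had -0.015, -0.064 and -0.25. *dpr9* had -0.019, -0.082 and -0.24. These 4 genes lay between -0.26 and -0.20 in nSyb neurons. *DIP-theta*, 8.35 kb from *DIP-eta*, had -0.029, -0.13 and -0.21, unlike its neighbour. *dpr3* had 0.0078, -0.02 and -0.17. *dpr16* had 0.044, 0.029 and -0.11. The last 4 members did not have this order of the 3 values. *dpr19* had -0.065, -0.037 and -0.21. *dpr2* had -0.011, 0.019 and -0.16. *DIP-kappa* had -0.035, 0.02 and -0.11. *DIP-epsilon* differed least among them, with -0.015, -0.043 and -0.041.

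Gene values were lower in elav neurons than in NSCs, and lower again in nSyb neurons, in 20 of 32 members (62.5%), compared with 12.5% of all protein-coding genes. In percentiles, which do not depend on the spread of each track, 21 members (65.6%) were lower at both steps, against 16.3% of all genes. In 25 members (78.1%) the nSyb percentile was the lowest of the 3, against 32.9%. The elav percentile was the lowest in 6 members (18.8%), fewer than the 34.3% of all genes: *DIP-eta*, *DIP-epsilon*, *DIP-zeta*, *DIP-lambda*, *dpr21* and *dpr6*. The remaining member, *dpr18*, had its lowest percentile in NSCs.

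To compare cell types whose tracks differ in spread, each gene value was scaled by subtracting the genome-wide median of protein-coding genes and then dividing by the genome-wide median absolute deviation times the constant that makes it comparable with an SD. A difference beyond 1 scaled unit was counted in each direction, and the 3 comparisons share tracks. From NSCs to elav neurons the median difference of the members was -0.40, against 0.055 for all protein-coding genes. Of the 18 members of at least 20 kb 17 were lower, against 51.8% of genes of that length, with medians of -0.46 and -0.038. Of all 32 members 27 were lower, against 47.5% of all genes. No member was lower by over 1 unit, against 12.1% of all genes, and none was higher by over 1, against 16.3%. Among genes of at least 20 kb 2.08% were lower by over 1. The count of 0 lower by over 1 became 4 with the unweighted median of the fragments, with 5 kb added on each side or with scaling by genes of at least 20 kb. The share of all genes was not taken in these settings, so the counts of 4 have no background. The largest negative differences were those of *dpr10* at -0.98, *dpr4* at -0.98 and *dpr12* at -0.86, and the largest positive ones those of *dpr14* at 0.37, *dpr7* at 0.22 and *dpr18* at 0.19.

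From elav to nSyb neurons the median difference was -0.28, against -0.039 for all protein-coding genes. Of the 18 members of at least 20 kb 13 were lower (72.2%), against 56.2% of genes of that length, with medians of -0.21 and -0.11. Of all 32 members 24 were lower, against 51.8% of all genes. Lower by over 1 unit were 3 members, against 12.5% of all genes: *dpr7* at -1.40, *dpr5* at -1.25 and *dpr14* at -1.15. Higher by over 1 unit was *dpr21* at 1.10, against 12.5% of all genes. *DIP-eta* at 0.92 and *dpr18* at 0.71 were the next largest positive differences. The count lower by over 1 was near the background share. It was 6 with the unweighted median of the fragments, for which the share of all genes was not taken.

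From NSCs to nSyb neurons the median difference was -0.68, against 0.037 for all protein-coding genes. Of the 18 members of at least 20 kb 16 were lower, against 52.8% of genes of that length, with medians of -0.61 and -0.045. Of all 32 members 27 were lower, against 48.0% of all genes. Lower by over 1 unit were 7 members (21.9%), against 11.1% of all genes, and all 7 were Dpr genes. They were *dpr5* at -2.02, *dpr4* at -1.60, *dpr7* at -1.18, *dpr1* at -1.16, *dpr12* at -1.12, *dpr15* at -1.07 and *dpr10* at -1.07. No member was higher by over 1 unit, against 14.1%. The 5 members that were higher in nSyb neurons were *dpr18* at 0.90, *dpr21* at 0.62, *DIP-eta* at 0.39, *DIP-lambda* at 0.30 and *DIP-zeta* at 0.067. The median difference was -0.83 for Dpr genes and -0.48 for DIP genes. Genes of at least 20 kb varied less, and 7.02% of them were lower by over 1 unit, against 3 of the 18 members of that length. The count of 7 was 14 with the unweighted median of the fragments, and 12 with 5 kb added on each side or with scaling by genes of at least 20 kb. The share of all genes was not taken in these settings, so 14 and 12 cannot be set against 11.1%. The count was 4 without arm 3R or with neighbouring members left out.

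**Figure D2:**
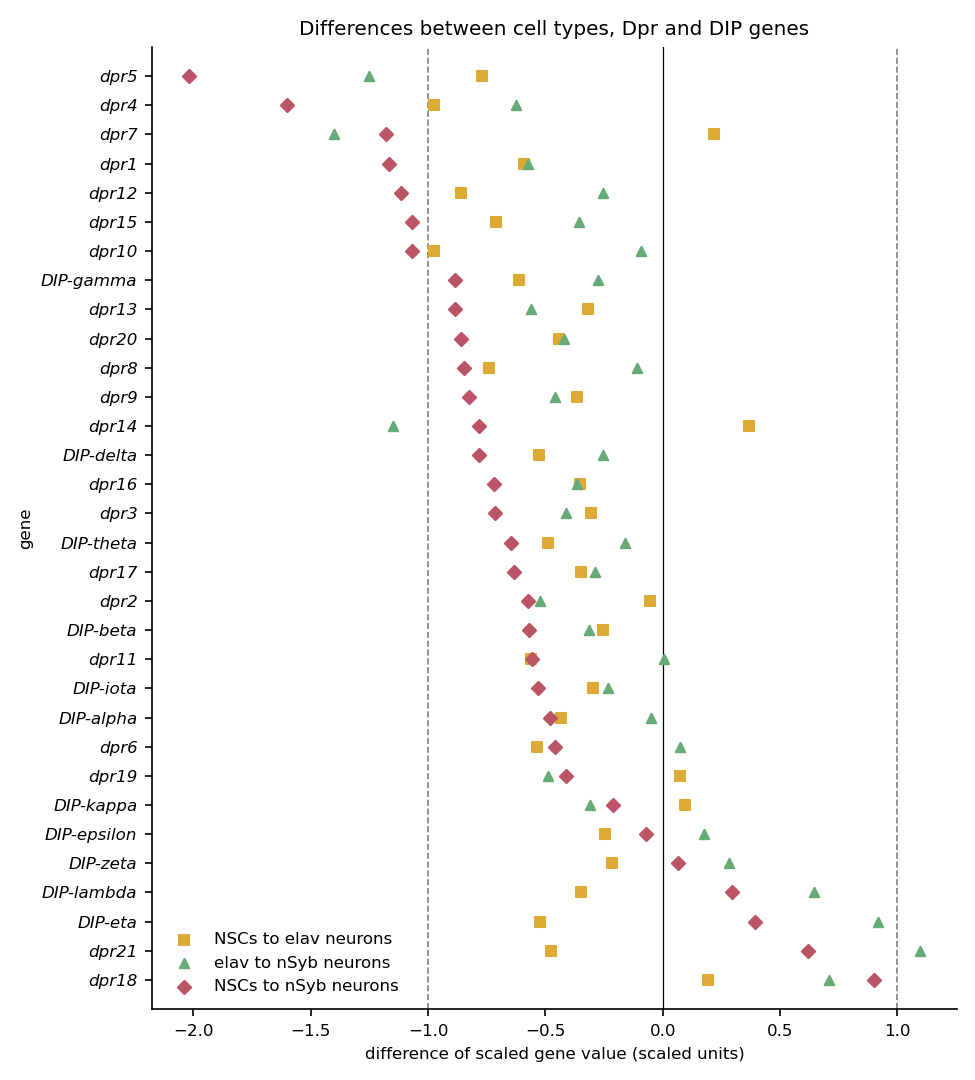
Differences of scaled gene values (x axis, scaled units) for the 32 Dpr and DIP genes from NSCs to elav neurons (squares), elav to nSyb neurons (triangles) and NSCs to nSyb neurons (diamonds), 1 value per gene and comparison with no error bars. Dashed lines mark 1 unit in each direction, and 27 of the 32 diamonds lie below 0, against 48.0% of all protein-coding genes.

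The order of the members themselves was kept from NSCs to elav neurons more than from NSCs to nSyb neurons. Over the 32 members the gene values had a Spearman rho of 0.67 for NSCs against elav neurons, 0.38 for elav against nSyb neurons and 0.17 for NSCs against nSyb neurons. Over all protein-coding genes it was 0.64, 0.63 and 0.65. These are descriptions over genes, and the members span a narrower range than all genes.

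As a median over genes, the low signal was present all along the gene body. Single genes could be low mainly in some parts, as the stretches below show. In each of 10 equal parts of the gene body, running from low to high coordinate because strand was not used here, the median of the 24 members of at least 10 kb was between -0.26 and -0.071 in nSyb neurons, against -0.027 to 0.00054 for the 1976 protein-coding genes of that length. In elav neurons it was between -0.17 and -0.043, against 0.0079 to 0.060. Both neuronal tracks were thus below the other long genes in all 10 parts. In NSCs the members ranged from -0.038 to -0.0049 and the genes of that length from -0.027 to -0.00090. There the members were lower in 9 of the 10 parts, with a median gap of -0.018, beside -0.15 in each neuronal track. The 5 kb on either side of these 24 members were less low than the genes in nSyb neurons, with a median of -0.099. They had -0.085 in elav neurons and -0.011 in NSCs. The flanks of the 1976 genes had -0.046 in nSyb neurons, 0.00071 in elav neurons and -0.041 in NSCs. In both neuronal tracks the members' flanks were thus also lower than those of other genes. In 3 of the 24 members (12.5%) the flanks were below the gene value in nSyb neurons, compared with 52.1% of genes of that length. The same count was 7 members (29.2%) in elav neurons and 10 (41.7%) in NSCs, against 55.7% and 57.1%.

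**Figure D3:**
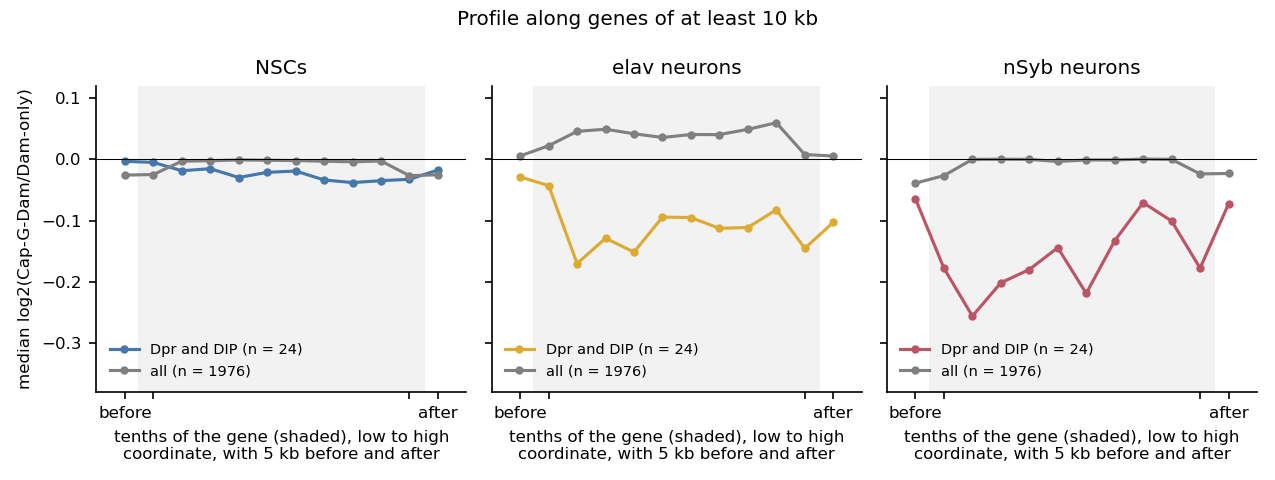
Median log2 ratio of Cap-G-Dam over Dam-only (y axis) in 10 equal parts of the gene (shaded) and in the 5 kb before and after it, for the 24 Dpr and DIP genes of at least 10 kb (coloured) and all 1976 protein-coding genes of that length (grey), with no error bars. In nSyb neurons the coloured medians lie between -0.26 and -0.071 within the gene and the grey ones stay near 0.

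Fragments of the members were next counted one by one. The 32 genes overlapped 3328 fragments, of which *DIP-lambda* held 1198 and *dpr21* held 403, so shares are also given without these 2 genes. Fragments among the lowest 5% of the whole track, below -0.51 in NSCs, -0.77 in elav and -0.65 in nSyb neurons, made up 1.95%, 4.84% and 8.41% of the members' fragments. Without *DIP-lambda* and *dpr21* the shares were 1.85%, 5.44% and 15.5%. Fragments among the highest 5% made up 1.44%, 0.51% and 0.69%, and without these 2 genes 2.61%, 0.93% and 1.04%. The members' fragments were therefore poor in both extremes in NSCs. In nSyb neurons they held a larger share of low and a smaller share of high values than the 5% of the track. Their median length was 295 bp, against 196 bp for all fragments, and the shares were not adjusted for this. In nSyb neurons 28 of 32 members held more of the lowest than of the highest fragments and none held fewer, whereas in NSCs 11 held more and 13 held fewer. These counts depend on the number of fragments in a gene and are given without a share of all genes. They therefore do not show what is usual for genes of this length. Not a single fragment was above 0 in nSyb neurons in *dpr7* (19 fragments), *dpr17* (29) and *dpr19* (10).

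Consecutive low fragments formed stretches of a few kb. In nSyb neurons 18 members held at least 3 adjoining fragments from the lowest 5%, in elav neurons 9 and in NSCs 5. Among the 24 members of at least 10 kb these counts were 14 (58.3%), 8 (33.3%) and 5 (20.8%), whereas the shares of all protein-coding genes of that length were 35.2%, 27.2% and 29.7%. The longest stretch of each of the 18 members had a median level of -0.99 in nSyb neurons, by which it was chosen. The same stretches had medians of -0.57 in elav neurons and -0.099 in NSCs, where 6 and 1 of them were below the 5% limit. A stretch chosen as low in 1 track is likely to be less low in the others, so these medians say nothing on their own about a difference between cell types. The 9 stretches chosen in elav neurons had -1.11 there, -0.52 in NSCs and -0.94 in nSyb neurons. The 5 chosen in NSCs had -0.78 there, -1.40 in elav and -0.57 in nSyb neurons.

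In *dpr12* the stretch 2R:5805400-5807928, 0.69 kb from its low-coordinate end, had -0.99 in nSyb neurons, -0.92 in elav neurons and -0.42 in NSCs. In *DIP-delta* the stretch 3L:5424382-5427045, 0.27 kb from the same end, had -1.02, -0.63 and -0.11. Both partners of this pair thus held a low stretch near 1 end of the gene. Such a position was common, as 9 of the 18 stretches chosen in nSyb neurons lay within 5 kb of an end. In *dpr10* the stretch 3L:10181896-10184316, 1.79 kb from its high-coordinate end, had -0.95 in nSyb neurons, -0.95 in elav neurons and -0.37 in NSCs. In *dpr4* the stretch 3R:11540858-11543255, which reaches past the high-coordinate end, had -1.35, -0.99 and 0.01. In *dpr1* the low stretch lay inside the gene, 18.2 kb from the low-coordinate end (2R:20716671-20719991), and had -1.03 in nSyb neurons, -0.30 in elav neurons and 0.04 in NSCs. No other protein-coding gene overlapped these 5 stretches.

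Other stretches were low in all 3 cell types or were lost in nSyb neurons. In *dpr11* the stretch 3R:6535575-6537257, 6.41 kb from the low-coordinate end, had -0.67 in NSCs, -1.40 in elav and -1.43 in nSyb neurons. In *DIP-beta* the stretch X:21443363-21444456 had -1.08, -1.92 and -1.44. These 2 were therefore low in all 3 tracks. In *DIP-eta* the stretch 2L:5611890-5613702 had -1.19 in NSCs, -1.63 in elav and -0.12 in nSyb neurons, and this was the longest low stretch of the gene. In *dpr14* the fragment X:7907472-7908393 at the high-coordinate end had -1.11, -1.42 and -1.10.

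**Figure D4:**
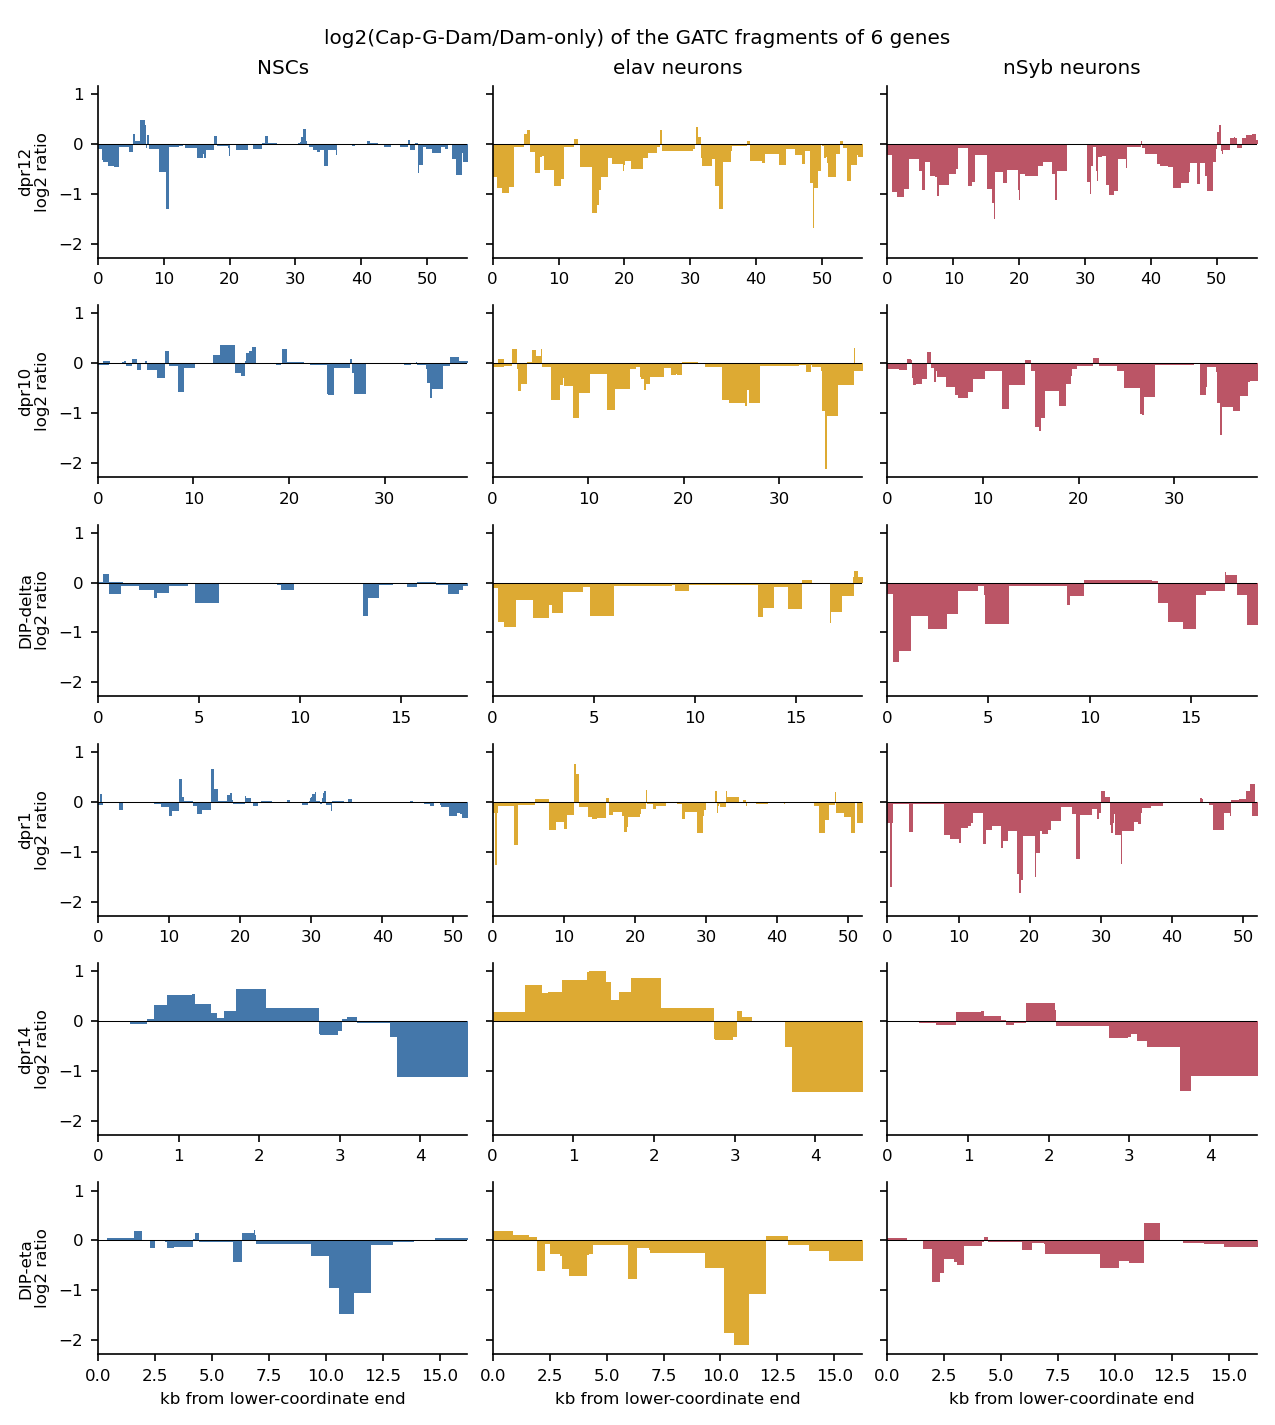
log2 ratio of Cap-G-Dam over Dam-only of each GATC fragment (y axis) along *dpr12*, *dpr10*, *DIP-delta*, *dpr1*, *dpr14* and *DIP-eta* (x axis, kb from the low-coordinate end of the gene) in NSCs, elav neurons and nSyb neurons, each filled step being 1 fragment of the averaged track. The inner part of *dpr1* is lowest in nSyb neurons, and the low stretch of *DIP-eta* is seen in NSCs and elav neurons but not in nSyb neurons.

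Regions of high Cap-G signal were called on the averaged tracks as runs of fragments above quantiles of the track at an FDR of 0.01%, and a gene counted as bound when a region lay within 5 kb with no other gene between. Because neighbouring fragments resemble each other and the order of fragments was taken as random, this FDR is lenient. No member was bound in NSCs, where 7.84% of all protein-coding genes were, 1 was bound in elav neurons, against 10.5%, and 1 in nSyb neurons, against 9.39%. Among protein-coding genes of at least 20 kb the shares were 17.6%, 24.3% and 16.9%. High Cap-G signal was therefore rare at these genes in all 3 cell types.

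The bound gene of elav neurons was *dpr14*, whose region X:7904100-7905794 covered 11 fragments within the gene, with no other protein-coding gene over it. Its mean was 0.77 in elav neurons, 0.34 in NSCs and 0.11 in nSyb neurons. The gene thus combined a high part toward its low-coordinate end with a low fragment at the other end. The bound gene of nSyb neurons was *dpr6*, whose region 3L:10096281-10100106 covered 18 fragments and had 0.55 in nSyb neurons, 0.22 in NSCs and 0.024 in elav neurons. This region overlaps *Srg2* and *CG42826*, genes that lie inside *dpr6*, so that the signal cannot be assigned to *dpr6* alone.

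At an FDR of 1% the counts were 5 in NSCs, against 24.0% of all genes, 2 in elav neurons, against 25.3%, and 2 in nSyb neurons, against 26.0%. In NSCs these were *DIP-alpha*, *DIP-theta*, *DIP-epsilon*, *dpr20* and *dpr6*, in elav neurons *dpr14* and *DIP-iota*, and in nSyb neurons *DIP-theta* and *dpr6*. Most of the regions overlapped another gene, namely *ppk8* in *DIP-alpha*, *Nepl6* in *DIP-epsilon*, *CG11050* at *DIP-iota* and *Cyp6a16* beside *DIP-theta*. The regions of *dpr14* and *dpr20* overlapped no other protein-coding gene. In *dpr20* the region 3L:852970-853953 had 0.59 in NSCs, 0.55 in elav and 0.47 in nSyb neurons. It was thus high in all 3 cell types, whereas the region in *DIP-alpha* (X:3568293-3570232) had 0.53 in NSCs, -0.24 in elav and -0.43 in nSyb neurons.

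Fragments listed at 0 in all 3 tracks numbered 411 of the members' fragments (12.3%), of which 326 lay in *DIP-lambda*, and 25 of the 32 members had none. Without *DIP-lambda* and *dpr21* their share was 4.75%, against 6.56% of all fragments. They covered 20.4% of the length of *DIP-lambda*, 18.5% of *dpr2* and 13.1% of *dpr3*. Such fragments pull a gene value toward 0, and their removal left every gene value of the members within 0.041 of the value given above.

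The same values were then taken for other cell-surface proteins with immunoglobulin domains. The Beat proteins and the Side proteins bind each other as receptors and ligands in axon guidance, as the DIP and Dpr proteins do at synapses. The 14 Beat genes had a median of -0.042 in NSCs, -0.17 in elav and -0.23 in nSyb neurons, where 14 of 14 were below 0. The 8 Side genes had -0.046, -0.22 and -0.24, with 8 of 8 below 0 in nSyb neurons. The median scaled difference from NSCs to nSyb neurons was -0.42 for Beat and -0.80 for Side genes, beside -0.68 for Dpr and DIP genes. From NSCs to elav neurons it was -0.65 for Beat and -0.76 for Side genes, beside -0.40. From elav to nSyb neurons it was -0.044 for Beat genes (8 of 14 lower) and -0.086 for Side genes (5 of 8 lower), beside -0.28 (24 of 32 lower). At this step the Dpr genes had -0.41 (17 of 21 lower) and the DIP genes -0.16 (7 of 11 lower). Protein-coding genes of at least 20 kb had -0.11. The larger median of the joint list thus came mainly from the Dpr genes, and differences between the lists were not tested. In contrast, the 20 other Ig adhesion genes had medians of -0.079, -0.15 and -0.13, with 15 of 20 below 0 in nSyb neurons, and a median scaled difference of -0.088. For these 20 the nSyb median was thus not below the elav median.

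Among Beat genes *beat-IIIc* was lowest in NSCs (-0.10) and elav neurons (-0.41) and *beat-IV* in nSyb neurons (-0.47). The highest were *beat-VI* in NSCs (0.0033), *beat-Va* in elav neurons (0.13) and *beat-Vb* in nSyb neurons (-0.023). Among Side genes *side-V* was lowest in NSCs (-0.12) and elav neurons (-0.36) and highest in nSyb neurons (-0.17). *side-VII* was highest in NSCs (0.14) and elav neurons (0.12), and *side-VIII* was lowest in nSyb neurons (-0.34). Both lists therefore held genes that changed places between cell types. Among the other Ig genes *Lac*, a cell adhesion protein of septate junctions, was lowest in NSCs (-0.52) and elav neurons (-0.69) but was 0.21 in nSyb neurons. *robo1*, a receptor for Slit in axon guidance, was lowest in nSyb neurons (-0.41). *wrapper*, a protein of midline glia, was highest in all 3, at 0.37, 0.46 and 0.53, above every Dpr and DIP gene.

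**Figure D5:**
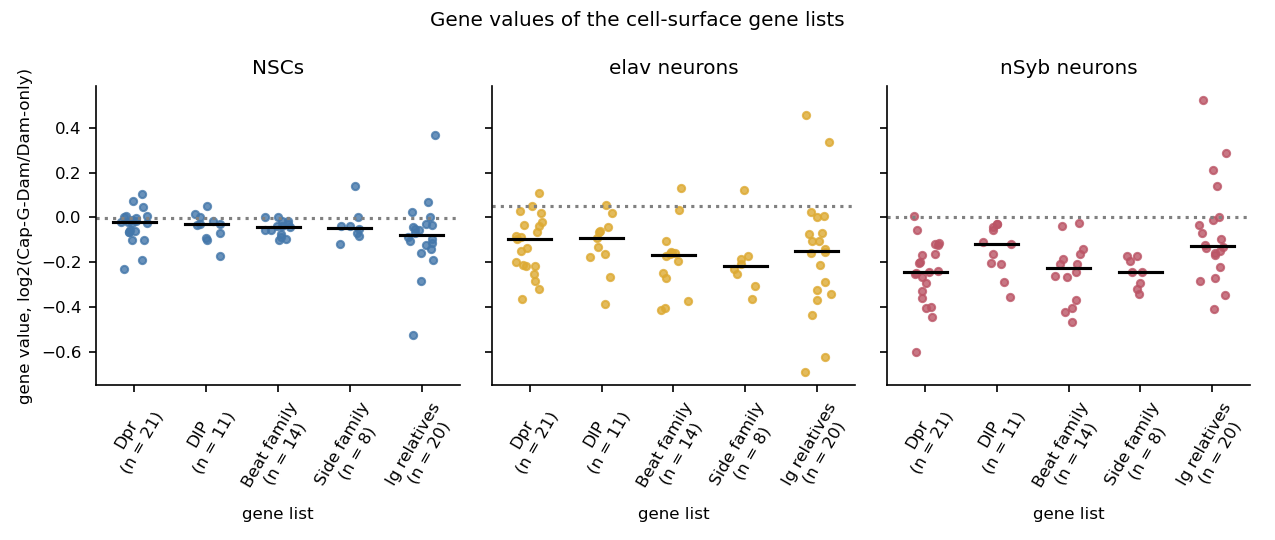
Gene values (y axis, mean log2 ratio of Cap-G-Dam over Dam-only) of the Dpr, DIP, Beat, Side and other Ig adhesion genes in NSCs, elav neurons and nSyb neurons, each point being 1 gene, with horizontal spread for display only. Bars mark the median of each list and the dotted line that of all protein-coding genes, and in nSyb neurons the Dpr, Beat and Side medians lie between -0.24 and -0.23.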

How the data were processed

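Cap-G binding was measured by TaDa in 12 samples, 2 Cap-G-Dam and 2 Dam-only for each driver. Reads of 50 bp were mapped by the authors to release 6.03 (BDGP6) using Bowtie2. They binned them by GATC fragment, normalised Cap-G-Dam to Dam-only and deposited log2 ratios, averaged over the replicates of a driver. For the tool versions and the way of averaging, nothing was given in the sources used here. No use was made of the 12 RNA-seq samples.

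Genes came from a Release 6 gene table without strand or exons, and all 32 members and all listed genes matched by symbol. No sequence was used here. Gene values, percentiles, scaled values and regions (at least 2 fragments, quantiles 0.80, 0.85, 0.90, 0.95 and 0.99) were computed with Python 3.11.15, numpy 2.4.6 and pandas 2.3.3 and checked on simulated tracks. The study called regions per replicate, while here they were called on the averages.

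All members were named, those in full being the 3 lowest and highest of each track, the 3 largest rises and falls, those bound at FDR 0.01% and 3 known pairs. *dpr14*, *dpr20*, *DIP-eta*, *dpr11*, *DIP-beta* and *dpr1* were also described by stretches or regions chosen after their values were seen. Members and lists were chosen with earlier results of these data known.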

Additional observations from a re-analysis of the deposited data

How the results depend on the processing

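No paired analysis was possible because only the averages over replicates were used, and no replicate could be left out. Alternatives were 5 ways of forming the gene value, a background of genes of at least 20 kb, the removal of each chromosome arm, members at least 100 kb apart (28 kept), the removal of *DIP-lambda* and *dpr21* (chosen after seeing the data), a difference of percentiles, 2 settings of the profile and 4 of the regions. A median was taken as moved by over 0.05 (0.25 for scaled differences) and a count by over 1.5 times. No median of the members changed sign, although that of NSCs was 0 with the unweighted median of the fragments. With this median, members below 0 in NSCs numbered 15, members in the lowest 10% of elav neurons 1, and members lower by over 1 scaled unit 4 from NSCs to elav neurons, 6 from elav to nSyb neurons and 14 from NSCs to nSyb neurons; *dpr18* became 0.0255 in NSCs and 0.029 in elav neurons. With 5 kb added on each side, the lowest 10% held 1 member in NSCs, 2 in elav and 8 in nSyb neurons, and 4 members were lower by over 1 from NSCs to elav neurons and 12 to nSyb neurons. With fragments of 200 to 2000 bp, 1 member was lower by over 1 from NSCs to elav neurons. Against genes of at least 20 kb, the lowest 10% held 3, 3 and 10 of all 32 members (3, 1 and 6 of them shorter than 20 kb), and 4 and 12 were lower by over 1 from NSCs to elav and to nSyb neurons. Without arm 2L the elav median was -0.15. Without arm 3R, which holds *dpr4*, *dpr5* and *dpr15*, 2 members were in the lowest 10% of nSyb neurons and 4 were lower by over 1 from NSCs to nSyb neurons, and the latter count was also 4 with members at least 100 kb apart. At FDR 1% the bound members were 5 in NSCs, 2 in elav and 2 in nSyb neurons. Of these summary values under an alternative, 253 of 276 stayed within the limits, but some of them could not move. A background of long genes leaves gene values, counts below 0 and region calls as they are. Asking for at least 4 fragments repeated the main regions, which all held at least 4. The total is therefore no measure of stability. Shares of all genes lower by over 1 were not taken with other gene values or scaling, so those counts have no background. The cause of the changes listed above was not tested, except that other backgrounds and fewer members change counts by construction. Depth is unknown and no replicate spread could be had, so the size of a difference that the samples could resolve is unknown.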
